A study of Mus musculus with 48 samples.

Results

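The genes described here are 35 genes of T lymphocytes and natural killer (NK) cells, chosen by name as genes these cells are known for. They were read out of 25913 genes in each count table. They comprise 4 chains of the T cell receptor complex (Cd3d, Cd3e, Cd3g, Cd247), 3 coreceptor chains (Cd4, Cd8a, Cd8b1), 8 other surface receptors (Cd2, Cd5, Cd6, Cd27, Cd28, Thy1, Il7r, Il2rb), 3 signalling proteins (Lck, Zap70, Lat), 5 transcription factors (Tcf7, Lef1, Bcl11b, Eomes, Tbx21), 8 genes of cytotoxic granules and NK receptors (Gzma, Gzmb, Gzmk, Prf1, Nkg7, Klrd1, Klrb1c, Ncr1) and 4 genes of regulatory or activated T cells (Foxp3, Ctla4, Pdcd1, Icos). The mice were female C3B6F1 hybrids. Bulk RNA-seq was made from white adipose tissue (WAT, 22 libraries), brown adipose tissue (BAT, 20 libraries) and liver (6 libraries), and the labels describe the 3 to 5 libraries of a group as biological replicates. The groups were AL (fed without limit), DR (60% of the AL food intake from 12 weeks of age), ALDR (AL mice moved to restriction) and DRAL (DR mice returned to full feeding). In the old mice both switches were made at 24 months. In the young mice the label ALDR stands for restriction begun at 12 weeks and lasting 2 months, and the label AL for full feeding. Old samples carry the age 26 months in their labels, whereas the protocol gives death at 27 months, and young samples carry 5 months. WAT and BAT each had AL and ALDR mice at 5 months (3 libraries each), AL and DR at 26 months (3 each), ALDR at 26 months (5) and DRAL at 26 months (5 in WAT, 3 in BAT). Liver had ALDR and DRAL at 26 months (3 each).

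T cells recognise peptides through a clonally variable receptor that signals through the CD3 chains and CD247, the kinases LCK and ZAP70 and the adaptor LAT, with CD4 or CD8 as coreceptor. NK cells lack that receptor and are triggered by receptors such as NKp46, the product of Ncr1, and both NK cells and cytotoxic T cells kill with perforin (Prf1) and granzymes. Adipose tissue holds resident T cells, among them regulatory T cells that need FOXP3, together with NK and innate lymphoid cells, and its depots can enclose lymph nodes and other lymphoid clusters.

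Most of the 35 genes were low in all 3 tissues. Levels are given in CPM, the gene's counts relative to the library's total, scaled by TMM library factors. Total counts were 12247161 to 22500246 per library in WAT, 6075585 to 19349912 in BAT and 14678489 to 22893099 in liver, and a count of 0 allows up to 0.133 to 0.245, 0.155 to 0.494 and 0.131 to 0.204 CPM, respectively, counting error only. All 35 genes passed the filter on low counts in WAT, 25 did in BAT (not Cd27, Lef1, Gzma, Gzmb, Prf1, Klrd1, Klrb1c, Ncr1, Foxp3 and Icos) and 9 did in liver (Cd3g, Cd2, Il7r, Il2rb, Lck, Zap70, Lat, Tcf7 and Icos). The 5 adipocyte markers summed to 12300 to 27700 CPM across WAT libraries, and the 5 brown adipocyte markers reached 3060 to 8550 CPM in BAT, where WAT libraries had 4.41 to 88.6 CPM. Cell content differed widely between libraries of a group: the 5 skeletal muscle markers summed to 278, 3680 and 11800 CPM in the 3 WAT libraries of DR mice. In bulk tissue, fewer cells of a type and less RNA per cell cannot be told apart.

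In WAT of AL mice at 26 months the highest level per kilobase of exon was that of Cd2, an adhesion receptor of T and NK cells, at 9.81 CPM per kilobase, followed by Thy1 at 6.22 and Nkg7, a cytotoxic granule protein, at 6.08. Lef1, a transcription factor of naive T cells, was lowest at 0.207 CPM per kilobase, next to Foxp3 at 0.227. Thy1 is also made by stromal cells of adipose tissue and is the member least particular to lymphocytes. The heat map shows the 22 WAT libraries. Most T cell genes were high or low together in a given library, while Gzma was low in every library of the DR mice and of the young restricted mice.

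**Figure D1:**
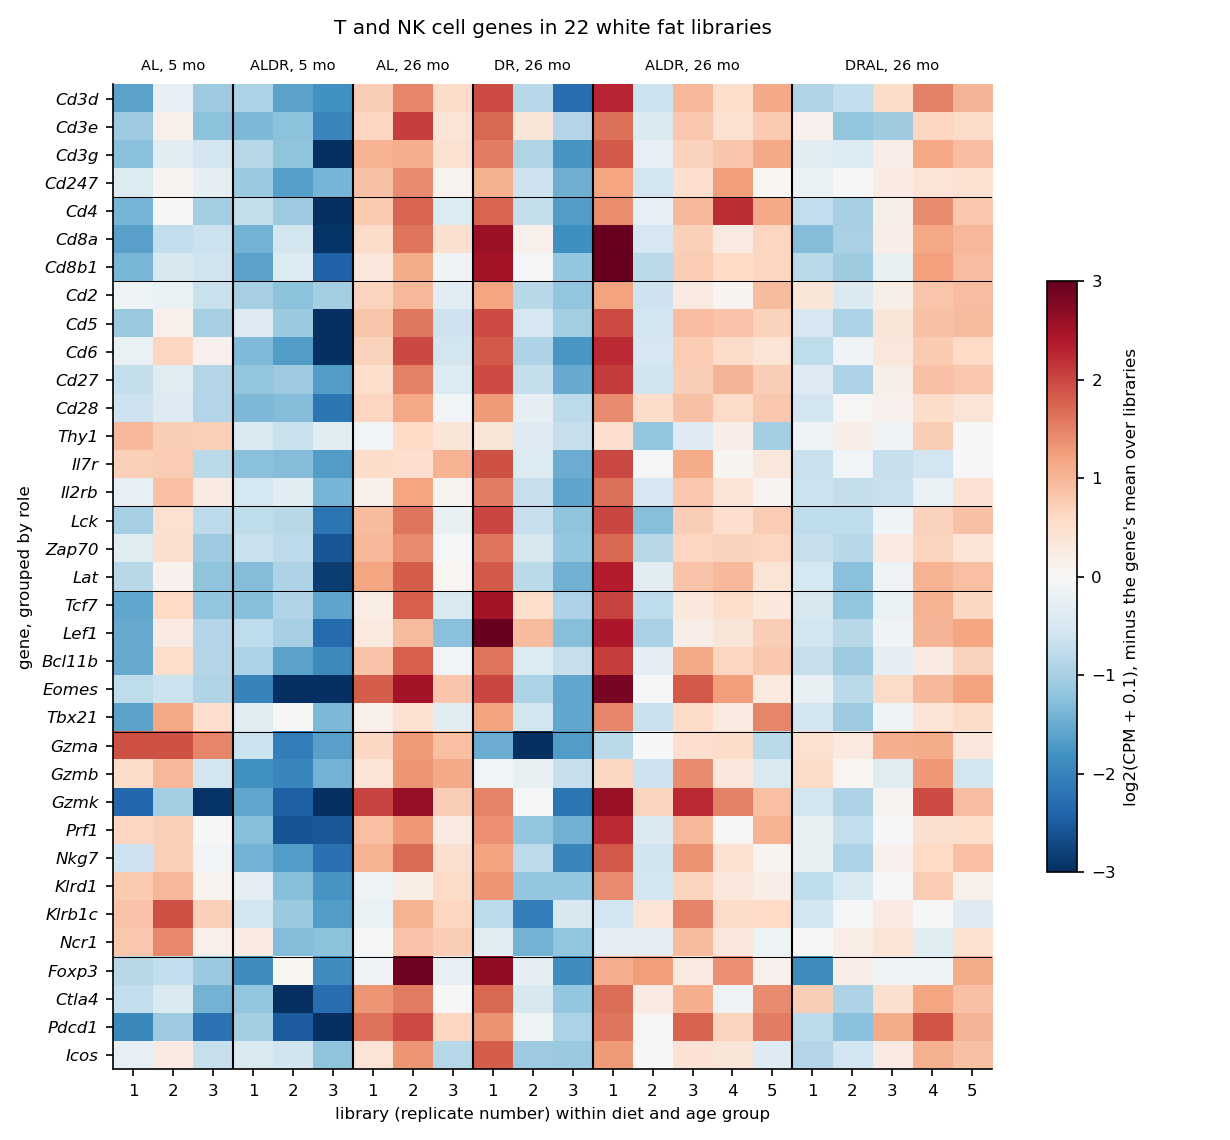
Heat map of the 35 T and NK cell genes (rows, grouped by role) in the 22 white fat libraries (columns, by diet and age). Colour gives log2(CPM + 0.1) minus the gene's mean over the libraries. Replicate 2 of AL, replicate 1 of DR and replicate 1 of ALDR at 26 months are red in most T cell rows, while Gzma is blue in all 3 DR libraries and in the 3 ALDR libraries at 5 months.

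In WAT of 5-month-old mice, recent restriction (ALDR) was set against AL feeding. Gzma, which encodes the granule protease granzyme A and lies on chromosome 13 at 113093825 to 113100981 (GRCm38, minus strand), had 6.99, 7.01 and 5.12 CPM in the AL libraries and 1.11, 0.349 and 0.515 CPM in the ALDR libraries. Every restricted library lay below every fully fed one, and the log2 fold change was -3.29 (SE 0.53, adjusted p = 0.000195). Klrb1c, which encodes the NK receptor NK1.1 and has near copies among its neighbours that counting may split, had 2.18, 4.65 and 1.96 CPM under AL and 0.766, 0.489 and 0.294 CPM under ALDR, again without overlap (log2 fold change -2.50, SE 0.56, adjusted p = 0.0028). Gzmb, encoding granzyme B, had 0.88, 1.21 and 0.351 CPM under AL and 0.0851, 0.0699 and 0.147 CPM under ALDR. These groups did not overlap either, although the restricted libraries were at or under the level that a count of 0 allows (log2 fold change -2.93, SE 0.75, adjusted p = 0.00662). Thy1 had 29.4, 25.0 and 24.5 CPM under AL and 11, 9.29 and 11.8 CPM under ALDR (log2 fold change -1.30, SE 0.37, adjusted p = 0.0122).

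In all, 6 of the 35 genes were called at 5 months in WAT, all of them lower with restriction, against 29.2% of the 15828 genes tested. The other two called genes were Prf1, which fell by 2.71 on the log2 scale (SE 0.80, adjusted p = 0.0155), and Ncr1, which fell by 1.54 (SE 0.48, adjusted p = 0.0212). Ncr1 values overlapped between the groups, with 3.94, 6.16 and 2.46 CPM under AL and 2.64, 0.838 and 0.883 CPM under ALDR. By role, edgeR called 5 of the 8 cytotoxic and NK genes and 1 of the 8 other surface receptors. DESeq2 called 11 members lower, adding Nkg7, Klrd1, Cd6, Il7r and Eomes. The fit on the compared groups alone called 12, among them Eomes and Cd247 (adjusted p = 0.0258 and 0.00719) but not Ncr1, and Gzmb did not pass its filter. The share of all genes called by DESeq2 and by that fit is not given here, and 29.2% is the share of the main fit. The estimate was below 0 for all 35 genes, with a median log2 fold change of -0.98, beside -0.01 over all genes tested, of which 51.0% were below 0. Leaving out ALDR replicate 2 left 3 calls. Without AL replicate 2 the median was -0.53, and 31 of the 35 estimates were below 0.

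None of the receptor chains and coreceptors of T cells was called at 5 months. Cd247 had 5.80, 8.10 and 6.38 CPM under AL and 3.49, 2.37 and 2.87 CPM under ALDR, without overlap (log2 fold change -1.22, adjusted p = 0.098). Cd6, a surface receptor of T cells, had 3.06, 5.56 and 3.86 CPM and 1.36, 1.05 and 0.294 CPM, also without overlap (log2 fold change -2.21, adjusted p = 0.0761). Cd3e, a signalling chain of the T cell receptor complex, had 0.621, 1.63 and 0.561 CPM under AL and 0.51, 0.559 and 0.294 CPM under ALDR, which do not overlap by a narrow margin (adjusted p = 0.334). Cd4 had 2.64, 7.37 and 3.44 CPM under AL and 4.34, 3.28 and 0.589 CPM under ALDR, and Cd8a had 0.88, 1.69 and 1.82 CPM and 1.02, 1.96 and 0.294 CPM. Both coreceptors overlapped between the diets (adjusted p = 0.582 for Cd4 and 0.811 for Cd8a). Foxp3, the factor that defines regulatory T cells, was at 0.104, 0.121 and 0.0701 CPM under AL and 0, 0.279 and 0 CPM under ALDR, which is too low to compare. Exons of Ccdc22 and Ppp1r3f on the opposite strand and of Flicr on the same strand overlap Foxp3, so that all Foxp3 values here are uncertain.

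Markers of other leukocytes moved in the same comparison. The 8 macrophage markers summed to 2380 to 3610 CPM under AL and 1480 to 1960 CPM under ALDR, with 4 of the 8 called lower, and the 5 dendritic cell markers summed to 65.0 to 179 CPM and 13.8 to 18.8 CPM, with 3 of the 5 called lower. Of the neutrophil markers 2 of 4 tested were called lower, and 3 of the 5 adipocyte and 2 of the 5 brown adipocyte markers higher, with adipocyte sums of 24800 to 27700 CPM under ALDR and 16500 to 22700 CPM under AL. None of the 10 B cell markers was called, and their sum was 27.8 to 45.5 CPM under AL and 27.0 to 38.0 CPM under ALDR. The 6 lymph node markers summed to 2.54 to 4.45 CPM under AL and 5.87 to 10.4 CPM under ALDR, without overlap, and none was called, while 1 of the 5 hepatocyte markers, Cyp2e1, was called higher under ALDR. The part of these cell types in the fall of the called members was not tested. With the B cell marker level as a covariate, an alternative chosen after seeing the data, 11 members were called lower, and the log2 fold change of Gzma was -3.28. The share of all genes called in that fit is not given here. B cell sums overlapped between the diets, so that this covariate could move the Gzma estimate little. The macrophage, dendritic cell and adipocyte markers were not in it, and their part was not tested by this fit.

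The stretches of DNA just before the start of 3 of these genes are shown because Gzma, Gzmb and Ncr1 fell together and each stretch holds the letters TGTGGT or their reverse complement, the core recognised by RUNX factors, which act in T and NK cells. The sequences are the 250 bases before the RefSeq transcript start (GRCm38.p6), written 5′ to 3′ on the gene's strand, and capitals mark the motif. None of the 3 overlaps an exon of the GENCODE annotation. Gzma lies on chr13:113100982-113101231 (minus strand), Ncr1 on chr7:4337465-4337714 (plus strand) and Gzmb on chr14:56262335-56262584 (minus strand).
Gzma: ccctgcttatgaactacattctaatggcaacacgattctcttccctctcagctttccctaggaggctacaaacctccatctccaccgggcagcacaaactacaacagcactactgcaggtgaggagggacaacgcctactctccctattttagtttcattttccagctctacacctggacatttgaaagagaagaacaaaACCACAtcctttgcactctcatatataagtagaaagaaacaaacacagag
Ncr1: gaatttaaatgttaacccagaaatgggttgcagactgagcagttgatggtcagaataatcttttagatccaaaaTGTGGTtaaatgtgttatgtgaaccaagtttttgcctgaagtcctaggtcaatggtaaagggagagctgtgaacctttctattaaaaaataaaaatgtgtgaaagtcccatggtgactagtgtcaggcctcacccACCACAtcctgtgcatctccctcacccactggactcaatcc
Gzmb: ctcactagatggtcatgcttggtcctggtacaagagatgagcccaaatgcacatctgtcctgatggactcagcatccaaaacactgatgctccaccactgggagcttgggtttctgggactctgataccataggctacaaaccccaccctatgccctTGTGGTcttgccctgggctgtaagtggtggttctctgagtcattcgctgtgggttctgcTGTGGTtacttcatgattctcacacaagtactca

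The motif begins 50 bases before the start in Gzma, 176 and 41 bases before it in Ncr1, and 93 and 34 bases before it in Gzmb. RefSeq windows were found for 26 of the 35 genes (not for Cd4, Cd8b1, Cd2, Cd6, Cd28, Thy1, Il2rb, Klrd1 and Icos), some with several starts, which gives 35 windows. TGTGGT on either strand was in 9 of these 35 windows, or 25.7%, beside 14% of all 32851 windows, and the 8 genes that hold it are Gzma, Gzmb, Klrb1c, Lck, Ncr1, Nkg7, Prf1 and Zap70. The search took in 3 other motifs on both strands. TCACACC, a T-box core, was in 2 member windows and 3.33% of all, AGGAAG, an ETS core, in 18 and 29.5%, and TTCNNNGAA, the spacing of a STAT site with N for any base, in 4 and 7.02%. None of the 3 windows printed here holds any of these other motifs. Lck, Nkg7 and Zap70 hold TGTGGT but were not called in WAT of the young mice in the main fit. The printed stretches were chosen for the fall and for these letters, so that both occurring together is no result. The letters are a description of the sequence and not of binding.

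In WAT of the old mice, lifelong DR was set against AL feeding. Gzma had 2.83, 4.49 and 3.43 CPM under AL and 0.579, 0.102 and 0.494 CPM under DR. The groups did not overlap, and the fold change on the log2 scale was -3.19 (SE 0.53, adjusted p = 0.000314). Ncr1 had 2.16, 4.09 and 3.79 CPM under AL and 1.74, 0.763 and 0.926 CPM under DR (log2 fold change -1.54, SE 0.48, adjusted p = 0.0226), and Klrb1c had 1.01, 2.50 and 1.87 CPM and 0.637, 0.204 and 0.803 CPM (log2 fold change -1.71, SE 0.55, adjusted p = 0.0269). For both receptors the lowest AL library lay just above the highest DR library.

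These 3 genes, all NK or cytotoxic, were the members called, against 26.0% of all genes tested. The median log2 fold change of the 35 genes was -0.44, beside 0.00 over all genes, and 29 of the 35 estimates were below 0. That median was -0.09 without AL replicate 2, -0.10 without DR replicate 2 and -0.02 without DR replicate 3, with 19, 21 and 19 estimates below 0, and it was -0.76 without AL replicate 3. The plot of single libraries shows the 3 called genes beside 3 T cell genes. Gzmb had 0.767, 1.53 and 1.35 CPM under AL and 0.522, 0.458 and 0.309 CPM under DR, without overlap, and the fit on the compared groups alone called it (log2 fold change -1.49, adjusted p = 0.0448) but not Klrb1c. For 2 other cytotoxic genes DR replicate 1 lay above all AL libraries: Prf1 had 5.79, 0.916 and 0.741 CPM under DR beside 2.60 to 5.51 CPM under AL, and Klrd1 had 3.88, 0.611 and 0.618 CPM beside 1.34 to 2.28 CPM. Cd3e had 2.30, 6.42 and 1.97 CPM under AL and 5.04, 1.88 and 0.741 CPM under DR, Cd4 had 12.3, 24.0 and 5.35 CPM and 24.2, 4.32 and 2.16 CPM, and Cd8a had 4.41, 9.03 and 4.10 CPM and 17.9, 3.26 and 0.741 CPM. In each case DR replicate 1 lay among or above the AL libraries and the other two DR libraries lay below all 3 of them. Foxp3 had 0.24, 2.67 and 0.208 CPM under AL and 2.20, 0.204 and 0 CPM under DR, with AL replicate 2 and DR replicate 1 high.

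**Figure D2:**
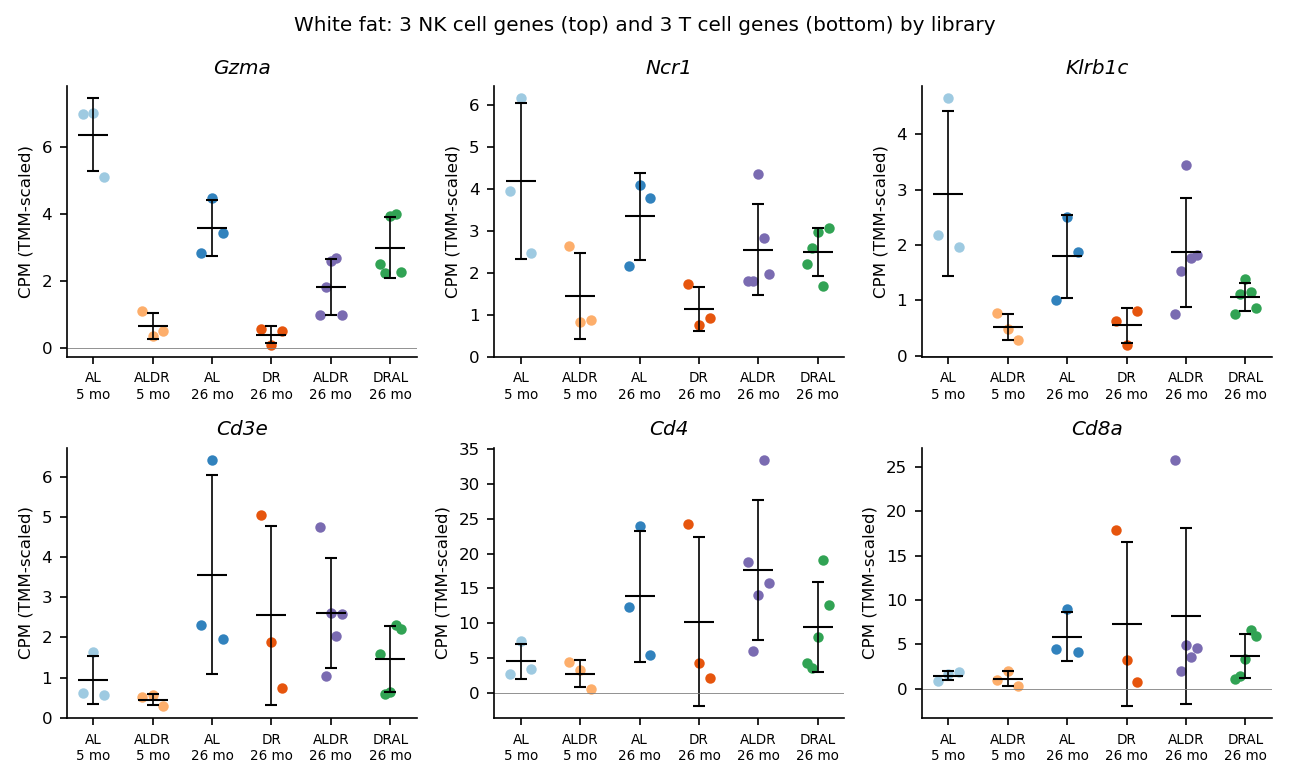
CPM (y axis, TMM-scaled) of 3 NK cell genes (top row) and 3 T cell genes (bottom row) in white fat by diet and age group (x axis). Points are libraries, and bars give the mean and SD of the 3 or 5 libraries of a group. All 3 DR points for Gzma lie at or below 0.579 CPM, whereas a DR library reaches 17.9 CPM for Cd8a.

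DR replicate 1 was the highest of the 3 DR libraries for 34 of the 35 genes, while it was the highest for 39.0% of all genes with a highest library. The exception was Klrb1c, highest in replicate 3. The ratio of the highest to the lowest DR library was 24.2 for Cd8a, 23.7 for Lef1 and 21.8 for Cd3d, and it was 1.69 for Gzmb, 2.09 for Thy1 and 2.28 for Ncr1. Among the other cytotoxic genes it was 19.1 for Gzmk, 10.4 for Nkg7 and 5.69 for Gzma, and among T cell genes it was 4.22 for Cd28. The same library had the highest sum of the 10 B cell markers in its group, 417 CPM beside 62.2 and 139 CPM, and the highest sum of the 6 lymph node markers, 83.8 CPM beside 7.68 to 10.2 CPM. The part of lymphoid tissue in the values of this library was not tested.

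Without DR replicate 1, 15 of the 35 genes were called lower under DR than under AL, where 26.0% of all genes were called, and all 35 estimates were below 0, with a median of -1.84. The 15 genes came from most roles: Cd3d, Cd3g and Cd247 of the receptor complex, Cd2, Cd6, Cd28, Il7r and Il2rb among other receptors, Lat in signalling, Eomes among the transcription factors, and Gzma, Prf1, Nkg7, Klrb1c and Ncr1. Cd247, whose product couples the receptor to ZAP70, had a log2 fold change of -1.90 in that fit (SE 0.48, adjusted p = 0.00721), beside -0.85 with all libraries. Cd247 shares exon sequence with Pou2f1 on the opposite strand, and whether the counting kept strands apart is not given in the sources used here. The log2 fold change of Lef1 moved from 1.61 with all libraries to -0.02 without that one (adjusted p = 0.991), and that of Tcf7, its partner in naive T cells, from 0.52 to -0.87 (adjusted p = 0.488). Leaving out DR replicate 2 or AL replicate 2 or 3 in place of it left Gzma as the only call, and leaving out DR replicate 3 left Gzma and Klrb1c.

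**Figure D3:**
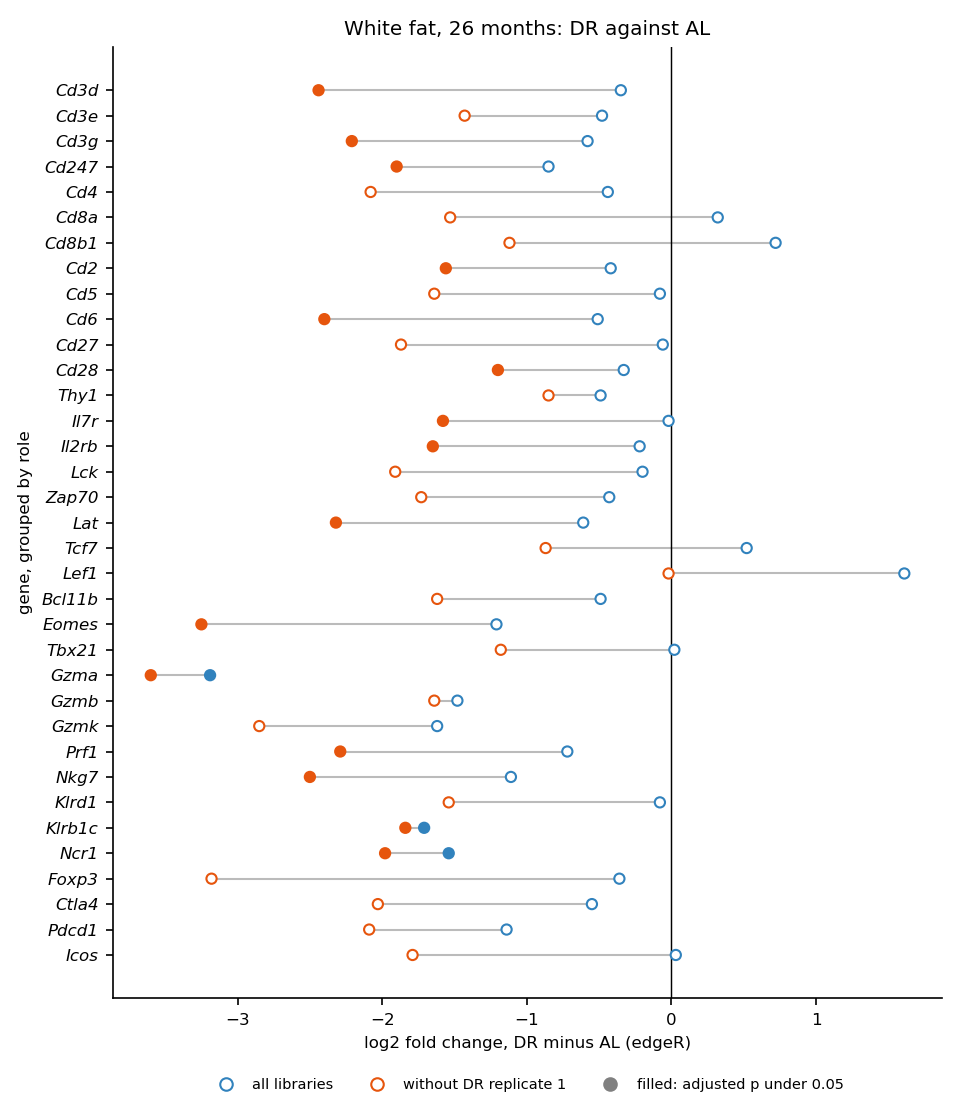
Log2 fold change of DR against AL (x axis, edgeR) for the 35 genes in white fat at 26 months, with all libraries (blue) and without DR replicate 1 (orange). Filled circles have an adjusted p under 0.05, 3 with all libraries and 15 without that library; the orange points lie to the left of 0, and Gzma is far to the left in both.

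Markers of other cell types also differed between DR and AL. All 8 macrophage markers were called lower, with sums of 2850 to 4670 CPM under AL and 756 to 1180 CPM under DR, and these sums did not overlap whether or not DR replicate 1, at 1180 CPM, was included. Dendritic cell markers summed to 105 to 205 CPM and 17.5 to 33.3 CPM, with 1 of 5 called lower, and 3 of 4 neutrophil markers were called lower. Called higher under DR were 3 of the 5 adipocyte, 2 of the 5 brown adipocyte, 2 of the 5 skeletal muscle, 1 of the 5 mast cell and 1 of the 5 hepatocyte markers, with adipocyte sums of 17000 to 21400 CPM beside 12300 to 15000 CPM. None of the 10 B cell markers was called. Their part in the fall of Gzma, Ncr1 and Klrb1c was not tested. With the B cell marker level as a covariate the same number of members, 3, was called, and Gzma had a log2 fold change of -3.18. The markers called in this comparison were not in the covariate, so that this fit did not test their part.

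The old mice that had switched diet were then compared with the lifelong DR mice, which serve as the common control of both comparisons. In ALDR mice, 2 members were higher than in DR mice and none lower, against 12.8% of all genes called. Gzma had 0.983, 1.81, 2.60, 2.69 and 0.985 CPM in the 5 ALDR libraries, each above the highest DR library (log2 fold change 2.22, SE 0.50, adjusted p = 0.00762). Klrb1c had 0.756, 1.54, 3.45, 1.77 and 1.82 CPM, with the lowest ALDR library inside the DR range (log2 fold change 1.77, SE 0.51, adjusted p = 0.0288). A fit on the 2 groups alone called neither (adjusted p = 0.0629 for Gzma and 0.0992 for Klrb1c), and Klrb1c was also lost without ALDR replicate 3 (adjusted p = 0.0741) or without DR replicate 2 (adjusted p = 0.136). The median log2 fold change of the 35 genes was 0.44, beside 0.01 over all genes, but it was 0.05 without ALDR replicate 1, 0.09 without DR replicate 2 and 0.00 without DR replicate 3. Ncr1, at 1.81, 1.81, 4.36, 2.82 and 1.97 CPM, lay above the DR libraries and was called with DESeq2 (log2 fold change 1.17, adjusted p = 0.0496) but not with edgeR, and Cd4, at 18.8, 6.03, 14, 33.5 and 15.8 CPM, overlapped them. Foxp3 had 0.68, 0.768, 0.339, 0.854 and 0.303 CPM in ALDR and 0, 0.319, 0.232, 0.232 and 0.696 CPM in DRAL, both inside the DR range. Without DR replicate 1, 15 members were called higher in ALDR, against 14.6% of all genes, and the median was 1.85.

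In DRAL mice 1 member was higher than in DR mice, Gzma, against 30.5% of all genes called. It had 2.50, 2.23, 3.95, 4.01 and 2.26 CPM in the 5 DRAL libraries, all of them at least 2.23 CPM where no DR library exceeded 0.579 CPM (log2 fold change 2.93, SE 0.51, adjusted p = 0.000431). The median over the 35 genes was -0.20 and 23 estimates were below 0. It was -0.04 without DRAL replicate 1 or 2, -0.45 and -0.40 without DRAL replicate 4 and 5, and -0.55 and -0.64 without DR replicate 2 and 3. Cd3e, at 1.58, 0.585, 0.638, 2.32 and 2.20 CPM, and Cd8a, at 1.12, 1.43, 3.37, 6.57 and 5.91 CPM, lay within the DR range except for Cd3e in DRAL replicates 2 and 3, which were below it. Cd4, at 4.20, 3.51, 8.07, 19.1 and 12.6 CPM, was within it throughout. Without DR replicate 1 the median turned to 1.31 with 0 of the 35 estimates below 0, and 5 members were called higher (Gzma, Cd2, Cd247, Cd3g and Ncr1), against 29.9% of all genes; without DR replicate 3 Il7r was called lower beside the call of Gzma. Ncr1 had 2.20, 2.60, 2.96, 1.69 and 3.07 CPM in DRAL, of which replicate 4 lay inside the DR range, and it was called with DESeq2 (log2 fold change 1.14, adjusted p = 0.0364). The 8 macrophage markers were all called higher in DRAL than in DR, with sums of 1850 to 4400 CPM, and 7 of them were in ALDR, with sums of 1980 to 2890 CPM. All 5 skeletal muscle markers were called lower in DRAL than in DR, as were 2 of 5 adipocyte and 2 of 5 brown adipocyte markers. So was 1 marker each of hepatocytes, mast cells, epithelium and thymocytes. Higher were 2 of 4 neutrophil and 1 of 5 dendritic cell markers. In ALDR against DR, 2 of 4 neutrophil and 1 of 5 dendritic cell markers were higher. Lower there were 2 of 5 brown adipocyte, 1 of 5 adipocyte and 1 of 5 hepatocyte markers. The part of these cells was not tested.

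Against AL mice of the same age, which again serve both comparisons, the switched mice had no member called. In ALDR the count was 0 with edgeR and with DESeq2, against 4.36% of all genes called. At an unadjusted p under 0.05 there was 1 of the 35 genes, beside 19.6% of all genes. That gene was Gzma, with every ALDR library below every AL library (log2 fold change -0.97, SE 0.41, adjusted p = 0.194). The next was Thy1, with 14, 22.7 and 19.2 CPM under AL and 21.1, 6.64, 11.3, 17.2 and 7.35 CPM under ALDR (log2 fold change -0.55, SE 0.32, adjusted p = 0.362). The median over the 35 genes was -0.05. It turned to 0.40 without AL replicate 2, and it was -0.36 without ALDR replicate 1 and -0.34 without AL replicate 3. In DRAL the count was also 0 with both tools, against 2.17% of all genes called, and 1 of the 35 genes had an unadjusted p under 0.05, beside 19.7% of all genes. Cd3e had a log2 fold change of -1.28 (SE 0.59, adjusted p = 0.242) and Il7r, the receptor for the T cell survival factor interleukin 7, one of -1.10 (SE 0.56, adjusted p = 0.282). Il7r had 20.0, 19.4 and 28.2 CPM under AL and 8.53, 12.9, 8.41, 9.18 and 13.6 CPM under DRAL, without overlap. Of the 35 estimates 34 were below 0, with a median of -0.68 beside 0.00 over all genes. Without AL replicate 2 the median was -0.24 and 23 estimates were below 0.

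The opposite switches were also compared with each other. No member was called between ALDR and DRAL mice with edgeR, against 12.3% of all genes called, while DESeq2 called Il7r. At an unadjusted p under 0.05 there were 3 of the 35 genes, beside 29.8% of all genes. Il7r had 53.9, 13.4, 29.6, 14.4 and 17.4 CPM in ALDR, which overlap the DRAL values at their lower end (log2 fold change 1.29, SE 0.50, adjusted p = 0.0933). Cd28, the costimulatory receptor of T cells, had 18, 9.71, 12.3, 10.0 and 11.8 CPM in ALDR and 4.53, 6.80, 7.25, 9.71 and 8.70 CPM in DRAL (log2 fold change 0.74, SE 0.33, adjusted p = 0.14). The median over the 35 genes was 0.73, and 33 estimates were above 0. Without ALDR replicate 1, which is the highest of its group for 26 of the 35 genes, the median was 0.27. Of the 5 skeletal muscle markers 4 were called higher in ALDR than in DRAL, as were 1 of the 6 lymph node, 1 of the 5 mast cell, 1 of the 5 brown adipocyte and 1 of the 5 epithelial markers. Called lower were 1 of the 5 dendritic cell and 1 of the 4 neutrophil markers. The lymph node markers summed to 12 to 69.1 CPM in ALDR and 3.24 to 153 CPM in DRAL. The part of these cells was not tested.

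Ageing under full feeding was compared between AL mice of 26 and 5 months in WAT. No member was called with edgeR, against 0.114% of all genes, and 10 of the 35 had an unadjusted p under 0.05, beside 19.8% of all genes. DESeq2 called 3 members higher in old mice, Gzmk, Pdcd1 and Eomes. The share of all genes called by DESeq2 is not given here, so this count cannot be set against 0.114%. Gzmk, encoding a granzyme of memory-type T cells, had 5.18, 7.84 and 2.08 CPM at 26 months and 0.155, 0.544 and 0.0701 CPM at 5 months (log2 fold change 4.24, SE 1.05, adjusted p = 0.0669 with edgeR). Pdcd1, the inhibitory receptor PD-1, had 5.37, 6.70 and 2.65 CPM and 0.363, 0.725 and 0.281 CPM (log2 fold change 3.40, SE 0.87, adjusted p = 0.0678). Neither gene overlapped between the ages, and both were called with edgeR without AL replicate 3 at 26 months or without AL replicate 2 at 5 months. Eomes, a transcription factor of memory CD8 T cells and NK cells, had 6.14, 9.82 and 3.01 CPM and 0.932, 1.03 and 0.842 CPM (adjusted p = 0.135).

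Of the coreceptors, Cd8a did not overlap between the ages, at 4.10 to 9.03 CPM and 0.88 to 1.82 CPM (adjusted p = 0.291), and Cd4 did, at 5.35 to 24.0 CPM and 2.64 to 7.37 CPM (adjusted p = 0.301). Gzma pointed the other way, with 2.83 to 4.49 CPM in old mice and 5.12 to 7.01 CPM in young mice (log2 fold change -0.83), and Thy1 was 14 to 22.7 CPM against 24.5 to 29.4 CPM. The median over the 35 genes was 1.26, beside 0.01 over all genes, and it was 0.76 without AL replicate 2 at 26 months. B cell markers summed to 117 to 290 CPM in old AL mice and 27.8 to 45.5 CPM in young AL mice, plasma cell markers to 117 to 132 CPM and 10.6 to 70.2 CPM, and lymph node markers to 6.70 to 37.2 CPM and 2.54 to 4.45 CPM. The sums of these 3 lists did not overlap between the ages, and none of their markers was called. Their part in the T cell values was not tested.

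The effect of restriction at the 2 ages was compared by an interaction term, the ALDR minus AL difference at 26 months less that at 5 months. No member was called with edgeR, against 1.34% of all genes, while DESeq2 called Klrb1c and Gzma, and edgeR without ALDR replicate 1 at 26 months called Klrb1c. The share of all genes called by DESeq2 and by the fit without that library is not given here. The interaction of Klrb1c was 2.57 (SE 0.73, adjusted p = 0.0771 with edgeR) and that of Gzma 2.32 (SE 0.67, adjusted p = 0.0800). The log2 fold change of Gzma was -3.29 at 5 months and -0.97 at 26 months, and that of Klrb1c -2.50 and 0.07. An unadjusted p under 0.05 was found for 6 of the 35 genes, beside 18.2% of all genes: Klrb1c, Gzma, Prf1, Gzmb, Klrd1 and Il7r. The interaction estimate was above 0 for 34 of the 35 genes, with a median of 1.06 beside 0.01 over all genes, and the median was 1.61 without AL replicate 2 at 26 months. Restriction began at 12 weeks in the young mice and at 24 months in the old ones, so that age at its start and age at death cannot be told apart.

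**Figure D4:**
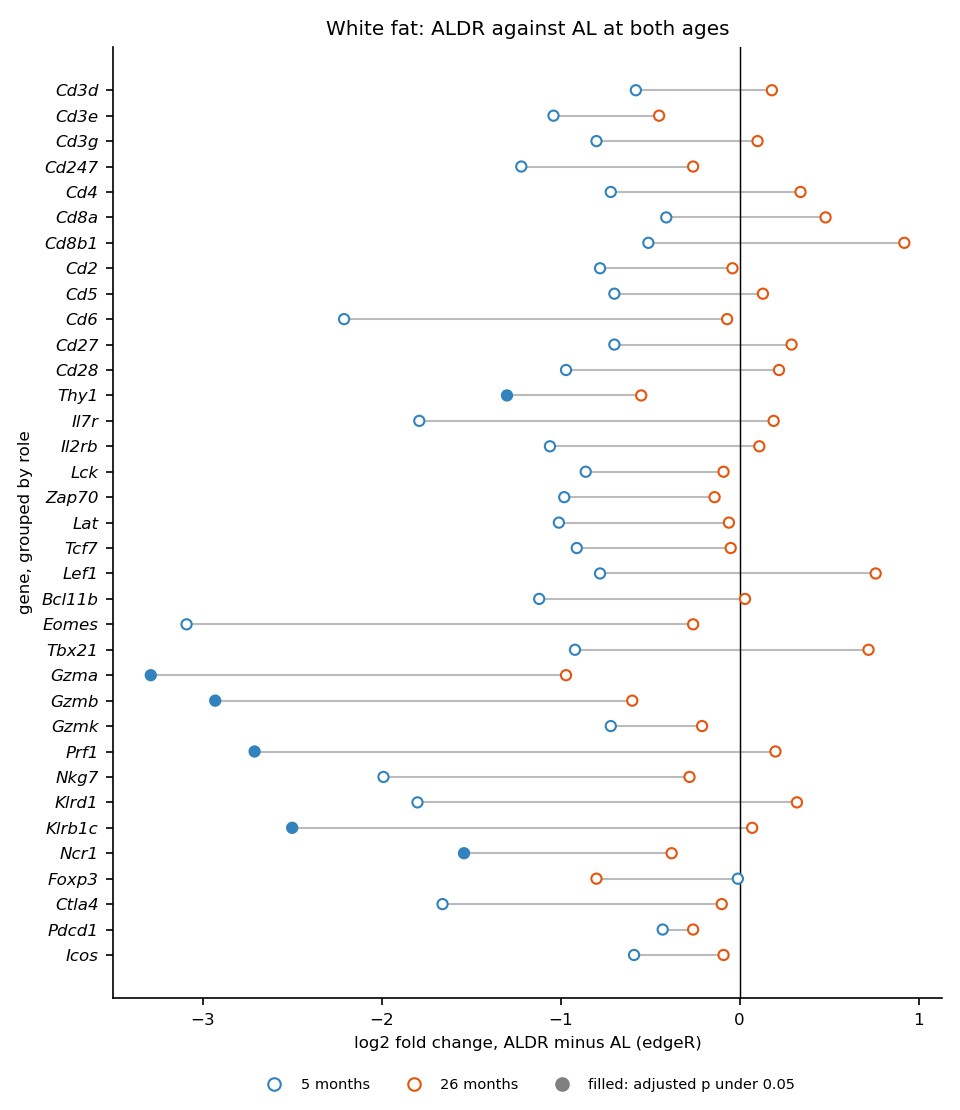
Log2 fold change of ALDR against AL (x axis, edgeR) for the 35 genes in white fat at 5 months (blue) and at 26 months (orange). Filled circles have an adjusted p under 0.05, 6 at 5 months and 0 at 26 months; the widest spans belong to Prf1, Eomes and Klrb1c, and for Foxp3 the value at 26 months lies to the left of that at 5 months.

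Other T and NK genes were followed in a list of 44, of which 41 were found and tested in WAT. At 5 months 10 of the 41 were called lower under restriction, beside 29.2% of all genes called in either direction. S1pr5, a receptor for exit of NK cells from tissue, fell by 4.58 on the log2 scale (SE 0.79, adjusted p = 0.000358), to a restricted level that a count of 0 allows. The other lower genes were Cd226, Klrk1, Prkcq, Klre1, Lcp2, Ptprc, Havcr2, Ifng and Itgal. Ptprc, the pan-leukocyte gene CD45, averaged 71.5 CPM under ALDR and 216 CPM under AL. In DR against AL at 26 months, 4 were lower (Cxcr6, Lcp2, Fyb and Klrk1), beside 26.0% of all genes called in either direction. The chemokine receptor Cxcr6 averaged 4.21 CPM under DR and 10.4 CPM under AL (log2 fold change -1.30, SE 0.37, adjusted p = 0.0132). Cxcr6 was higher in ALDR than in DR, by 1.10 on the log2 scale (SE 0.34, adjusted p = 0.0377), and higher in ALDR than in DRAL, by 0.87 (SE 0.28, adjusted p = 0.0485). Prkcq, a kinase acting after the T cell receptor, was lower in DRAL than in DR, with a log2 fold change of -1.17 (SE 0.26, adjusted p = 0.00272), and higher in ALDR than in DRAL, by 0.76 (SE 0.23, adjusted p = 0.0404). The interaction was called for S1pr5, at 5.24 (SE 0.95, adjusted p = 0.0169).

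The libraries of some groups differed widely in the T and NK genes as a whole. Others were close: in BAT the mean log2 CPM of the 35 genes ran from -0.91 to -0.59 under DR and from -1.5 to -1.2 under ALDR at 5 months. The mean log2 CPM of the 35 genes ran from 0.21 to 2.98 among the 3 DR libraries in WAT, from 1.19 to 3.15 among the 5 ALDR libraries at 26 months and from 0.92 to 2.30 among the 5 DRAL libraries. AL replicate 2 was the highest old AL library for 33 of the 35 genes, where it was the highest for 36.9% of all genes, and ALDR replicate 1 led for 26 of 35 genes, beside 27.5% of all genes. ALDR replicate 1 had 25.8 CPM of Cd8a where the other 4 libraries had 2.03 to 4.87 CPM. In the plot of the mean level against B cell markers, the 2 BAT libraries with the most B cell transcripts lie highest. In WAT the relation is looser: AL replicate 2 at 5 months had a mean level of 1.79 although no AL library of that age exceeded 45.5 CPM of B cell markers, and DR replicate 3 had 0.21 at 139 CPM. These points share library, tissue piece and depth, and the relation is a description.

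**Figure D5:**
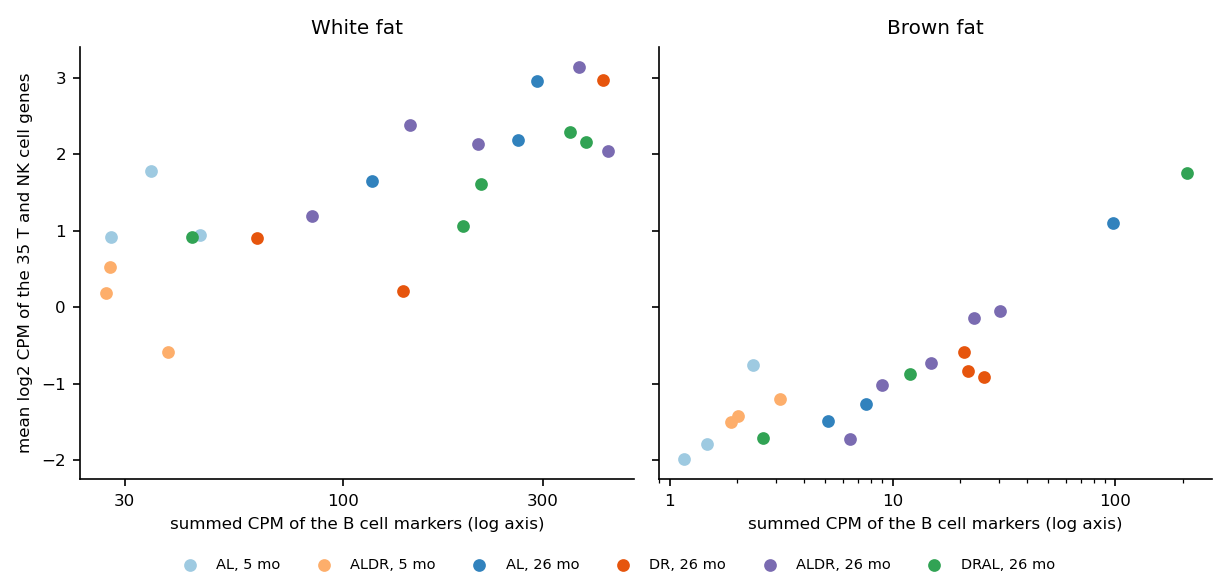
Mean log2 CPM of the 35 T and NK cell genes (y axis) against the summed CPM of 10 B cell markers (x axis, log scale) in white fat (left, 22 libraries) and brown fat (right, 20 libraries). Points are libraries, coloured by diet and age. The brown fat libraries with 97.0 and 209 CPM of B cell markers are the highest for the T and NK genes, at 1.10 and 1.76.

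In BAT no member was called in any comparison with edgeR or DESeq2. Of all 13845 genes tested, the share called with edgeR was 11.5% for DR against AL at 26 months, 1.30% for ALDR against AL at 26 months, 5.21% for ALDR against DR and 8.40% for DRAL against DR. It was 0% for DRAL against AL, 2.02% for ALDR against DRAL, 14.4% for ALDR against AL at 5 months, 0.0795% for AL at 26 against 5 months and 0.0144% for the interaction. In the same order, the number of the 25 member genes tested at an unadjusted p under 0.05 was 1, 1, 1 and 2, where 26.8%, 17.2%, 21.8% and 24.2% of all genes had such a p. For the other comparisons it was 0, 3, 0, 5 and 0, where 4.74%, 17.4%, 29.3%, 10.3% and 13.3% did. Thy1, at 8.48, 13.1 and 10.0 CPM under AL and 5.88, 7.17 and 4.88 CPM under DR, did not overlap between the diets but missed the threshold (log2 fold change -0.84, SE 0.34, adjusted p = 0.124). Ctla4, an inhibitory receptor of T cells, was next for this comparison (log2 fold change -2.0, SE 1.12, adjusted p = 0.262). A fit on the DR and AL libraries alone called both Thy1 and Ctla4 lower, and the share of all genes called in that fit is not given here.

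In BAT 2 libraries stood apart. At 26 months, AL replicate 2 and DRAL replicate 1 had 1.90 and 5.65 CPM of Cd3e, where the other 18 BAT libraries had 0 to 1.63 CPM, and 7.36 and 12.0 CPM of Cd4, where the others had 0.202 to 3.58 CPM. Cd8a was 3.04 and 5.73 CPM in these libraries and 0 to 2.37 CPM elsewhere, and Foxp3 was 1.52 and 1.85 CPM and 0 to 0.471 CPM elsewhere. Their B cell markers summed to 97.0 and 209 CPM, and no other BAT library exceeded 30.2 CPM. AL replicate 2 was the highest old AL library for all 34 genes that had a highest library, but it also was for 65.3% of all genes, whereas DRAL replicate 1 led for 32 of 35 genes beside 34.6% of all genes. Without both libraries, chosen after seeing the data, DR against AL had 1 member called, Tcf7, which was higher under DR (log2 fold change 2.38, adjusted p = 0.0469). The share of all genes called in that fit is not given here. NK genes were barely seen in BAT: Gzma was 0 to 0.888 CPM, Ncr1 0 to 0.422 CPM and Klrb1c 0 to 0.32 CPM, so that a fall such as that in WAT was not detectable at this depth.

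In the ageing comparison of BAT, Gzmk had 0.271, 1.84 and 0.176 CPM at 26 months and 0, 0.0657 and 0 CPM at 5 months (adjusted p = 0.395). Eomes was at 0 in the 3 young AL libraries and at 0.0902, 1.84 and 0 CPM in the old ones (adjusted p = 0.393). AL replicate 2 was the highest for both. At 5 months restriction left Cd8a, at 0, 0.657 and 0.0546 CPM under AL and 1.17, 0.305 and 0.449 CPM under ALDR, without a call (log2 fold change 1.37, SE 1.47, adjusted p = 0.587). For the old ALDR mice Cd247, at 1.57, 2.20, 1.96, 0.909 and 1.41 CPM against 1.44, 5.01 and 3.23 CPM under AL, had the smallest p (log2 fold change -1.01, SE 0.46, adjusted p = 0.27). Among the 26 other T and NK genes tested in BAT, Lag3, an inhibitory receptor, was called lower in ALDR than in DRAL, with a log2 fold change of -0.77 (SE 0.17, adjusted p = 0.0304).

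In liver ALDR and DRAL mice were compared at 26 months, and 1 of the 9 members tested was called, against 23.8% of the 12761 genes tested. Il7r had 1.14, 0.611 and 2.14 CPM in ALDR and 0.37, 0.386 and 0.54 CPM in DRAL, without overlap (log2 fold change 1.58, SE 0.51, adjusted p = 0.0465). The call was lost without ALDR replicate 3 (log2 fold change 0.99, adjusted p = 0.217) and in 6 other of 11 alternatives. Prf1, which did not pass the filter with all 6 libraries, had 0.471, 0.658 and 1.46 CPM in ALDR and 0.0529, 0.215 and 0.12 CPM in DRAL, without overlap but partly at the level that a count of 0 allows. It was called without a filter (log2 fold change 2.64, adjusted p = 0.0123) and, in place of Il7r, without ALDR replicate 1, DRAL replicate 1 or DRAL replicate 2 (log2 fold change 2.29 to 3.26). In the same comparison 3 of 5 hepatocyte markers were called higher in ALDR and 2 of 5 epithelial markers lower. The 1 lymph node marker tested, Cxcl13, was called higher, and the 1 thymocyte marker tested, Dntt, lower. None of the 6 B cell and 8 macrophage markers tested was called. The part of these cells in the Il7r value was not tested. Most members were near 0 in liver, with Cd3e at 0.135, 0.188 and 0.471 CPM in ALDR and 0.159, 0.0429 and 0.24 CPM in DRAL, Cd4 between 0.0429 and 0.611 CPM, Cd8a between 0 and 0.37 CPM and Foxp3 at 0 in 5 of the 6 libraries. Gzma was between 0.0601 and 0.893 CPM and Ncr1 between 0 and 0.37 CPM. Zap70 stood apart from its partners in the receptor pathway, at 21.6, 30.8 and 18.9 CPM in ALDR and 22.3, 28.0 and 28.2 CPM in DRAL, where Lck, the kinase acting before it, was at 0.30 to 1.57 CPM. No exon of another annotated gene overlaps Zap70.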

How the data were processed

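The authors deposited read counts per gene (whole numbers, one table for each tissue). Per the submitters' processing notes the tools included Trim Galore 0.3.7, TopHat2 2.0.14 and DESeq2, with the build GRCm38; the counting program and its strand setting are not given in the sources used here. Per the labels' protocols, BAT libraries (poly(A) RNA, single reads) were made differently from those of WAT and liver (total RNA, read pairs), so tissues were fitted apart.

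Counts were tested with edgeR 4.0.16 in R 4.3.3: TMM factors, filterByExpr by group, 1 quasi-likelihood fit for all groups of a tissue and Benjamini-Hochberg adjustment over all genes, with calls at an adjusted p under 0.05. CPM values use TMM-scaled library sizes, and mean log2 CPM a prior count of 2. The fit was also run on simulated data, in which only genes of higher level were changed, for ALDR against DRAL. That run does not cover genes as low as most NK genes here. Alternatives were DESeq2 1.42.0, its size-factor scaling in edgeR, no filter, only the groups compared, a replicate block, leaving out each library and 2 alternatives added after seeing the data. The share of all genes called is given for the main fit and for the fits without DR replicate 1 in WAT, and for no other alternative. Replicates differed by more than sampling noise.

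The members and lists were chosen with earlier results of these data known. Full values go to the called members with the smallest adjusted p, at most 4 per direction, or to the 2 with the smallest p where none was called, and per-library values also to Cd3e, Cd4, Cd8a, Ncr1, Gzma and Foxp3; other values were named after seeing them. For 1 gene of the list of other T and NK genes, which was called in several comparisons, results are not reported here, so that the calls given for that list are not complete. Gene positions were taken from GENCODE M21 and promoter windows from RefSeq. Klrb1c and Prf1 windows overlap annotated exons and are not printed.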

Additional observations from a re-analysis of the deposited data

Results flagged for a closer look

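In the 3 groups of 5 libraries, 105 sets of values were checked for a library far from the other 4, and 8 passed the limit. The limit flags about 1 in 20 sets of independent, normally spread values. These genes vary together within a library, so the count of 8 cannot be set against that rate. In white fat of ALDR mice at 26 months, replicate 1 stood far above the others for 6 T cell genes. It had 25.8 CPM of Cd8a beside 2.03 to 4.87 CPM, 10.8 CPM of Cd8b1 beside 0.658 to 2.15 CPM, 17.2 CPM of Cd6 beside 2.47 to 6.11 CPM, 22.5 CPM of Lat beside 3.40 to 8.6 CPM, 9.30 CPM of Tcf7 beside 1.26 to 3.22 CPM and 8.47 CPM of Lef1 beside 0.713 to 2.58 CPM. Both chains of CD8 and the factors of naive T cells are among them, and no NK gene is. In brown fat of ALDR mice at 26 months, replicate 5 stood apart for 2 NK genes, with 0.384 CPM of Gzma where the other 4 libraries had 0 and 0.448 CPM of Klrd1 beside 0 to 0.114 CPM. With the other 4 libraries at 0, any count passes the limit. In replicate 5 a count of 0 allows up to 0.201 CPM. This library was the highest of its group for 14 of 35 genes, beside 42.2% of all genes. That library also had 3940 CPM of the 6 lymph node markers, beside a median of 2.60 CPM in its group. Of this sum 3930 CPM were Glycam1, a gene of lymph node vessels and of mammary epithelium, and the epithelial markers summed to 367 CPM. The part of these cells in its values was not tested.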

How the results depend on the processing

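Of the counts of called members under an alternative, 234 were at the main count or within 1.5 times of it and 34 were not. The 234 include counts of 0 that stayed at 0. The main count was 0 in all BAT comparisons. In WAT it was 0 for ALDR and DRAL against AL at 26 months, ALDR against DRAL, age and the interaction. No called single member changed direction. All 188 differences in mean log2 CPM moved by less than the spread between replicates, but 3 in WAT and 13 in BAT changed sign. The WAT member median changed sign for DRAL against DR without DR replicate 1 (1.31), and for ALDR against AL at 26 months without AL replicate 2 (0.40) or ALDR replicate 2 (0.14), 4 (0.02) or 5 (0.06). Of the tests of single called members, 133 kept their call and 27 lost it. In WAT the call count for ALDR against DR went from 2 to 1 with a replicate block (Klrb1c at an adjusted p of 0.0717) and 0 with only the groups compared. DRAL against DR went from 1 to 2 with DESeq2 and with only the groups compared (Ncr1 added), and DRAL against AL from 0 to 1 with only the groups compared (Il7r). DESeq2 called 1 member for ALDR against DRAL, 11 for ALDR against AL at 5 months, 3 for age and 2 for the interaction. At 5 months, only the groups compared gave 12 and the B cell covariate 11. In BAT, DR against AL had 2 calls with only the groups compared, 1 with the covariate (Thy1) and 1 without the 2 libraries (Tcf7). ALDR against DR and DRAL against DR each had 2 with the covariate (Lat, Thy1). In liver the block and the covariate gave 0 and no filter gave 2 (Il7r, Prf1). The cause of these shifts was not tested. With 1 library left out, counts ran from 1 to 15 for DR against AL, 1 to 15 for ALDR against DR, 1 to 5 for DRAL against DR, 3 to 8 for ALDR against AL at 5 months, 0 to 2 for age and 0 to 1 for the interaction in WAT, and 0 to 1 in liver (Il7r or Prf1). Libraries with the same number share only a number (their deviations had a mean correlation of 0.0029 for WAT, -0.025 for BAT and -0.189 for liver libraries): the replicate block gave 7 calls at 5 months in WAT and otherwise left each count of called members in fat as it was, except that for ALDR against DR. Genes near the level that a count of 0 allows, such as most NK genes in BAT, cannot be compared at this depth, and groups of 3 limit what the fit can call.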
